A study of Mus musculus with 9 samples.

Results

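Solute carriers are membrane proteins that move amino acids, sugars, metals, nucleosides, vitamins, ions and metabolites across the plasma membrane and the membranes of organelles. They are grouped into numbered families by sequence, and the families largely follow the substrate carried. Some work alone, while others need a partner chain to reach the surface, as the light chains of the large neutral and cationic amino acid exchangers do with the heavy chain encoded by Slc3a2. In blood stem and progenitor cells, carriers set the supply of amino acids, iron, folate and glucose, and carriers of the Slc25 family set what enters and leaves the mitochondria.

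The genes described here are those whose symbol begins with Slc and a digit, Slc2a1 left out. Of 346 such genes with a named probe set, 231 were tested, because the gene's brightest probe set (by mean log2 intensity) exceeded its array's 40th percentile in at least 3 of the 9 arrays. The remaining 115 genes were not tested, and 106 of them lay above that percentile in 0 arrays. All 12652 genes that passed the same filter, of 18193 named genes, were fitted together. The cells were CD45.1+ LKS+ cells, the marrow fraction that holds blood stem cells and early progenitors, sorted from C57BL/6 mice labelled 8 weeks old. The groups were leukemic mice at day 14, leukemic mice at day 7 and control mice, with 3 arrays each. The study's title describes the cells as normal stem cells from different stages of acute myeloid leukemia. The leukemia model, the number of mice behind an array and the host of the CD45.1+ cells are not given in the sources used here, nor is whether the controls carried a graft.

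RNA amplified over 2 cycles was hybridised to Affymetrix Mouse Genome 430 2.0 arrays, and values are the authors' normalized intensities on a linear scale, where different probe sets cannot be set against each other. A gene is called higher or lower at an adjusted p below 0.05 in limma's moderated test (Benjamini-Hochberg over all genes tested). The labels call the replicates biological but name no separate animals, so p-values measure the spread between these arrays. In bulk RNA of sorted cells, fewer cells of a type and less RNA per cell cannot be told apart. Array correlations were 0.995 to 0.996 within day 14, 0.968 to 0.981 between day 14 and day 7, 0.965 to 0.981 between day 14 and control, and 0.990 to 0.995 between day 7 and control. The 75th percentile of an array was 115 to 119 at day 14, 128 to 130 at day 7 and 127 to 128 in controls. Stem and progenitor markers were present in every group: Kit read 1905, 1672 and 1510 at day 14, 1399, 1526 and 1435 at day 7 and 1704, 1766 and 1691 in controls. Of 19 LKS+ markers tested, 2 were higher and 6 lower at day 14 than in controls, while Kit, Flt3 and Cd34 were not called.

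Of 231 solute carrier genes, 2 were higher and 0 lower at day 7 than in controls, where 2.21% and 1.13% of all genes tested were called higher and lower. At an unadjusted p below 0.05 in the same limma fit, 30 passed (12.99%), against 19.8% of all genes tested. The median log2 change of the solute carrier genes was 0.01, as it was over all genes tested, and changes ran from -0.57 to 0.40.

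Slc3a2 encodes CD98hc, the heavy chain that brings several amino acid exchangers to the cell surface. Its intensity was 965, 965 and 968 at day 14, 819.8, 799 and 772 at day 7, and 664, 665 and 618 in controls. The 3 groups did not overlap. Day 7 arrays were higher than controls by 0.30 on the log2 scale (SE 0.06, 1.23-fold, limma adjusted p = 0.026) and day 14 arrays by 0.57 (SE 0.06, 1.49-fold, limma adjusted p = 4.4e-05). Day 14 was also higher than day 7, by 0.28 (limma adjusted p = 0.0026).

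Slc25a25 encodes a calcium-regulated mitochondrial carrier that exchanges adenine nucleotides with phosphate. It read 94.1, 96.3 and 111 at day 14, 86.8, 80.99 and 78.6 at day 7, and 67.6, 57.2 and 62.1 in controls. Again no array of one group reached into another. The log2 change was 0.40 at day 7 (SE 0.09, limma adjusted p = 0.036) and 0.69 at day 14 (SE 0.09, limma adjusted p = 0.00015) over control, and 0.29 at day 14 over day 7 (limma adjusted p = 0.017). The day 7 call of Slc3a2 was lost in 7 of 20 alternative settings, where its limma adjusted p was 0.0502 to 0.0985; 5 of them leave out control replicate 1, control replicate 3 or any 1 day 7 array. That of Slc25a25 was lost in 9 of 20 (limma adjusted p 0.0532 to 0.125), among them without control replicate 2 or 3, any 1 day 7 array or day 14 replicate 2, and its call between the stages was lost without day 7 replicate 2 or 3 or day 14 replicate 3 (limma adjusted p 0.0527 to 0.0618).

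The promoter of Slc25a25 is shown because the gene was 1 of the 2 called at both stages. It is a RefSeq window from 250 bases before to 50 after the start (GRCm38.p6, chr2:32451421-32451720, minus strand), with matches to the searched words in capitals.
Slc25a25: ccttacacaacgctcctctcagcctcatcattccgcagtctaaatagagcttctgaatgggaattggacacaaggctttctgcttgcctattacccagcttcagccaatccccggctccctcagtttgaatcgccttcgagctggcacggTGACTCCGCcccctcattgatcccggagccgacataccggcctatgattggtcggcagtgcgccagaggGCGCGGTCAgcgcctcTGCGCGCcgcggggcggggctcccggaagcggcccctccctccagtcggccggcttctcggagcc
The words searched on both strands were TGATGNAA (ATF4), TGACNNNGC (NRF2), CACGTG (MYC) and TGCGCNC (MTF1), and this window holds 2 NRF2 words and 1 MTF1 word. Of the 231 genes, 178 had at least 1 such window, and a gene was counted for a word that any of its windows held. The ATF4 word occurred in 5 of these genes (2.81%, against 4.51% of all 27025 genes with a window), the NRF2 word in 38 (21.3% against 14.0%), the MYC word in 29 (16.3% against 8.09%) and the MTF1 word in 51 (28.7% against 17.04%). The 27025 genes were not limited to those that passed the signal filter, and the number of windows per gene was not matched. These shares therefore cannot be read as an enrichment in solute carriers. A match is a string of letters and not a measured binding site. Of 22 transport partners and regulators tested, 4 were higher and 5 lower at day 14 than in controls, and Atf4 and Mtf1 were higher at both stages. Atf4 read 3582, 3527 and 3714 at day 14, 2386, 2489 and 2657 at day 7, and 1928, 1891 and 1953 in controls, a log2 change over control of 0.91 at day 14 (limma adjusted p = 6.4e-06) and 0.38 at day 7 (limma adjusted p = 0.013). Mtf1, the zinc-sensing transcription factor, was higher by 0.84 at day 14 (limma adjusted p = 1.4e-05) and 0.55 at day 7 (limma adjusted p = 0.0056).

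**Figure D1:**
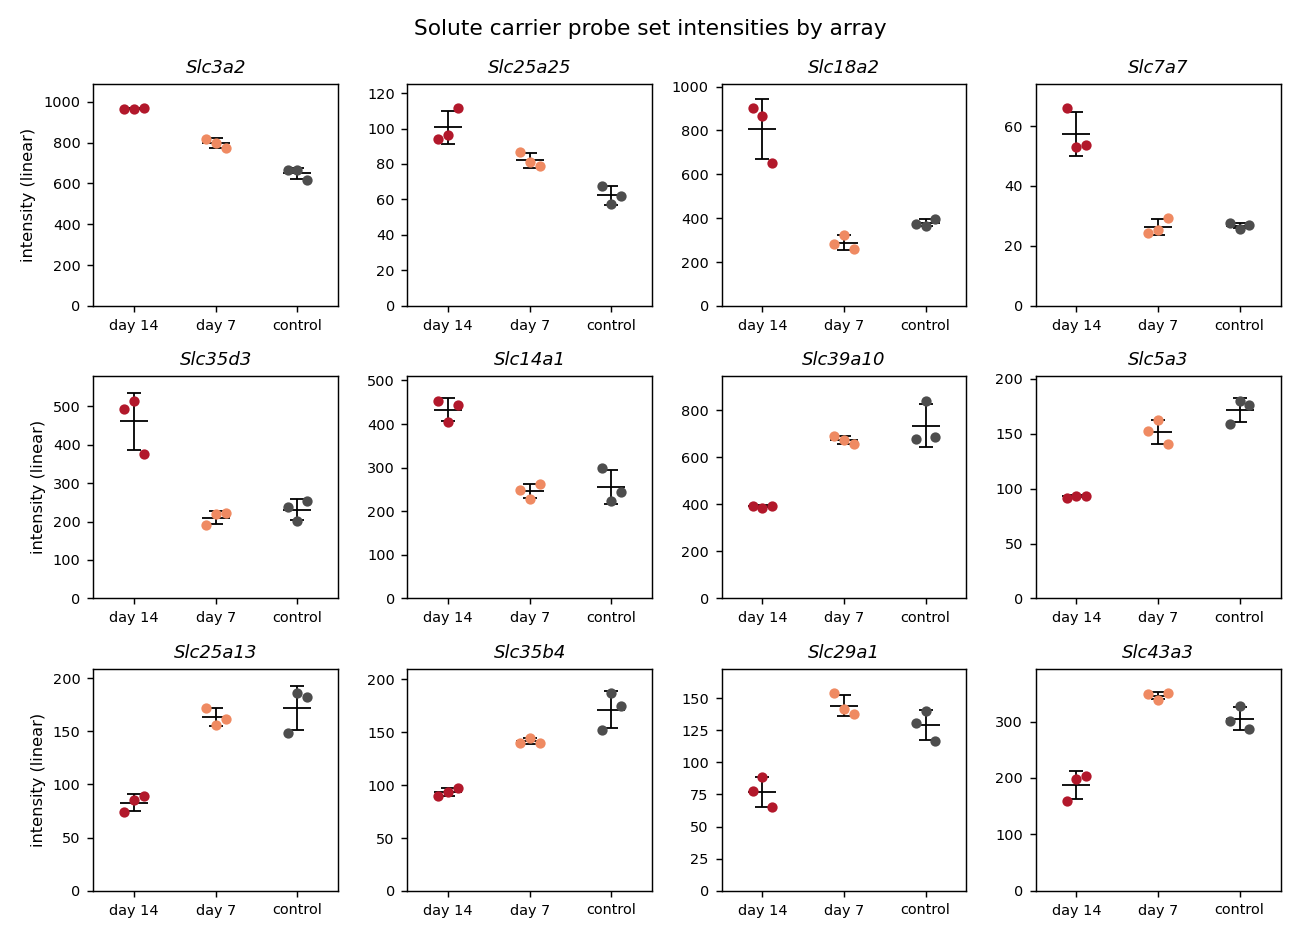
Intensity (linear axis from 0) of 12 solute carrier probe sets in each array, with day 14, day 7 and control from left to right; points are arrays, the bar is the mean and the whiskers the SD (n = 3). Slc3a2 and Slc25a25 are highest at day 14, next at day 7 and lowest in controls; the day 14 arrays of Slc18a2, Slc7a7, Slc35d3 and Slc14a1 lie above all others and those of the other 6 below.

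At day 14, 52 of 231 solute carrier genes were higher and 58 lower than in controls, and 121 were not called. Among all genes tested, 18.3% were higher and 34.1% lower, against 22.5% and 25.1% of the solute carriers. The median log2 change was 0.003 for the solute carriers and -0.06 for all genes. Most changes were small: 2 genes were at least 2-fold higher and 3 at least 2-fold lower, and the range was -1.09 to 1.09. The split depended on how the arrays were scaled: 66 were higher and 46 lower after quantile normalization (28.6% and 19.9%), and 86 and 37 with the arrays set to the same 75th percentile (37.2% and 16.02%). The median of all genes was -0.001 and 0.06 under those scalings.

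The calls also followed signal level. Of 150 solute carriers with a mean intensity of 50 or more, 23 were higher and 51 lower (15.3% and 34%), where all genes of that level gave 15.6% and 41.2%. Of the 81 dimmer ones, 29 were higher and 7 lower (35.8% and 8.64%), where all genes of that level gave 25.7% and 14.2%. Median log2 changes were -0.08 and 0.18 for the brighter and dimmer solute carriers and -0.13 and 0.12 for all genes of the same levels. The part of signal level in the results below was not tested. Class counts at day 14 against control are to be set beside 18.3% higher and 34.1% lower among all genes tested.

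**Figure D2:**
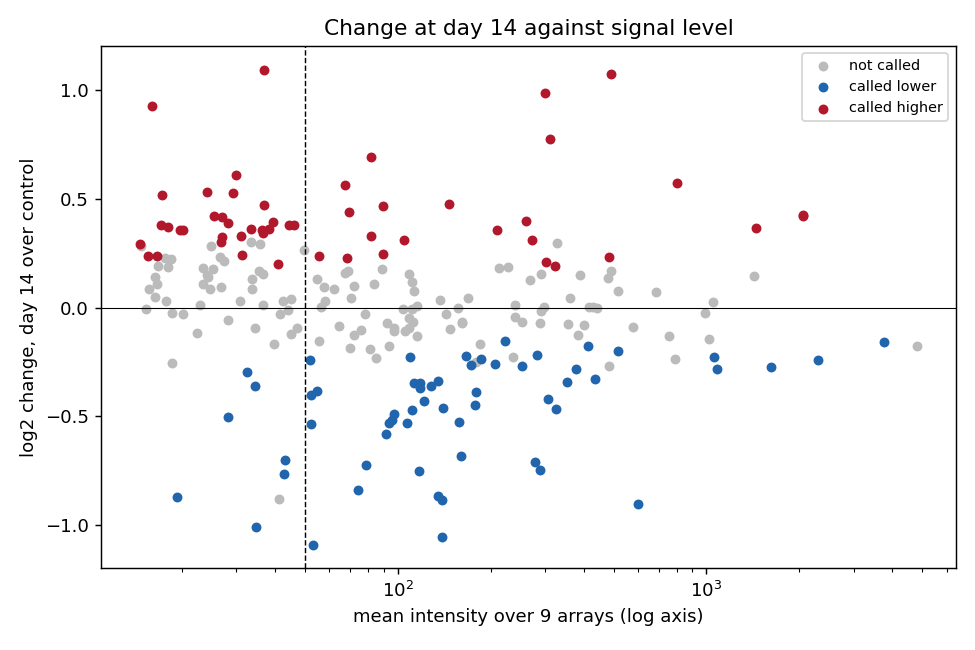
Log2 change of day 14 over control for each of the 231 solute carrier genes against its mean intensity over the 9 arrays (log axis); the dashed line marks an intensity of 50 and colour gives the call. Genes called higher are frequent left of the line (29 of 81) and genes called lower right of it (51 of 150).

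Carriers of amino acids and related amines formed the largest substrate class, with 42 genes, of which 14 were higher and 5 lower at day 14 than in controls (median log2 change 0.12). Of the 7 Slc38 genes, which encode sodium-coupled neutral amino acid transporters, 3 were higher and 0 lower. Of the 4 Slc36 genes, which encode proton-coupled amino acid transporters, 0 were called in either direction in limma's test. The 14 higher genes were 6 of the 23 brighter carriers of the class and 8 of the 19 dimmer ones.

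Slc7a7 encodes the y+LAT1 light chain, which exchanges cationic for neutral amino acids in complex with the Slc3a2 product. It read 65.9, 52.95 and 53.5 at day 14, 24.3, 25.4 and 29.3 at day 7, and 27.6, 25.8 and 27.1 in controls. Every day 14 array lay above every other array, and day 7 overlapped control. The log2 change was 1.09 over control (SE 0.10, 2.13-fold, limma adjusted p = 2.5e-05) and 1.12 over day 7 (SE 0.10, limma adjusted p = 2.4e-05). A second, dimmer probe set of the gene gave 0.31 over control. A promoter window of Slc7a7 is printed because it was 1 of the 5 genes with an ATF4 word (GRCm38.p6, chr14:54417895-54418194, minus strand); the window holds 2 of them, in capitals.
Slc7a7: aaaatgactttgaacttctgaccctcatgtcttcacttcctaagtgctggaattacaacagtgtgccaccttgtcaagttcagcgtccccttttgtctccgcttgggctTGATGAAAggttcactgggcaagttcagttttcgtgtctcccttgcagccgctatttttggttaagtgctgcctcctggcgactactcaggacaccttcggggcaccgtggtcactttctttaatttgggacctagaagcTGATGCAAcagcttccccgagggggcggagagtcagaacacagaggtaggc

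Slc7a8, the LAT2 light chain, read 51.5, 58.5 and 55.6 at day 14, 43.8, 42.3 and 34.8 at day 7, and 45.7, 42.8 and 38.8 in controls. It was higher at day 14 by 0.38 over control (SE 0.10, limma adjusted p = 0.0089). Slc7a5, the LAT1 light chain, was not called: it read 361, 408 and 402 at day 14, 519.8, 468 and 421 at day 7, and 373, 456 and 346 in controls. The cationic carrier Slc7a1 read 610.4, 777 and 737 at day 14, against 762, 980.2 and 763 in controls, and was not called (log2 change -0.24, limma adjusted p = 0.11). Among the partners of CD98hc, then, 2 light chains were higher at day 14, Slc7a6 (y+LAT2) was lower by 0.34 (SE 0.07, limma adjusted p = 0.0026), and Slc7a5 did not pass. The 2 higher ones had a mean intensity under 50, a level at which 25.7% of all genes tested were higher. Slc7a11, the cystine exchanger, was not tested, with intensities of 3.23 to 5.04 over the 9 arrays.

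Slc38a2, the SNAT2 glutamine and alanine transporter, read 2664, 2546 and 2332 at day 14, 1867, 1772 and 1702 at day 7, and 1723, 2026 and 1886 in controls. Its log2 change was 0.42 over control (SE 0.08, limma adjusted p = 0.0015), and 2 other probe sets gave 0.13 and 0.04. The related Slc38a1 was not called, at 1022, 963 and 935 at day 14 against 1004, 1142 and 1081 in controls. Slc1a5, the neutral amino acid exchanger ASCT2 that carries glutamine, went the other way. It read 128, 123 and 132 at day 14, 162, 167 and 162 at day 7, and 173, 182 and 196 in controls, lower at day 14 by 0.52 on the log2 scale than in controls (SE 0.06, 1.44-fold lower, limma adjusted p = 0.00014). Its second probe set gave -0.64.

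Slc43a3, known as a purine nucleobase carrier of a family otherwise known for large neutral amino acids, read 159, 199 and 204 at day 14, 349, 339 and 350.0 at day 7, and 301, 327 and 286 in controls. It was lower at day 14 than in controls by 0.71 on the log2 scale (SE 0.10, limma adjusted p = 0.00022). Slc6a8, the creatine transporter, was higher by 0.52 at a dim level, with 21.2, 20.9 and 21.4 at day 14 against 16.02, 14.998 and 13.5 in controls (SE 0.10, limma adjusted p = 0.0021). Slc6a6, the taurine transporter, was not called, at 1006, 933 and 1029 at day 14 against 1001, 1011 and 1001 in controls. Slc6a4, the serotonin transporter, was not called either, at 16.6, 16.6 and 16.6 at day 14 against 16.8, 14.6 and 14.1 in controls.

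The vesicular monoamine transporters moved in opposite directions. Slc18a2 (VMAT2), which loads serotonin and histamine into granules of platelets, mast cells and neurons, read 901, 865 and 649.5 at day 14, 284, 323 and 258 at day 7, and 374, 366 and 396 in controls. Day 14 stood above control and day 7 below it with no overlap, although the day 7 difference was not called (log2 change -0.40, limma adjusted p = 0.11). Day 14 was higher by 1.07 over control (SE 0.12, 2.11-fold, limma adjusted p = 9.0e-05) and by 1.47 over day 7 (SE 0.12, 2.78-fold, limma adjusted p = 2.1e-05). Slc18a1 (VMAT1), the form of endocrine cells, read 26.9, 31.1 and 34.5 at day 14, 55.7, 68.7 and 61.96 at day 7, and 62.9, 51.1 and 86.4 in controls. Day 14 was lower than control by 1.09 on the log2 scale (SE 0.17, 2.13-fold lower, limma adjusted p = 0.00051).

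Markers of megakaryocytes and platelets moved at the same stage as Slc18a2. Of 16 tested, 13 were higher and 0 lower at day 14 than in controls, with a median log2 change of 1.04, and their summed intensity ran from 12953 to 13253 at day 14, 6781 to 7116 at day 7, and 6304 to 7091 in controls. Of the list's 17 named genes, 1 lay below the 40th percentile in every array. Pf4 read 585, 608 and 680.0 at day 14, 175, 207 and 228 at day 7, and 151, 163 and 119 in controls. Of 6 mast cell and basophil markers tested, 4 were higher and 0 lower, and Cpa3 was higher by 1.14. The list's summed intensity ran from 9909 to 10074 at day 14, 8441 to 8673 at day 7, and 8266 to 8702 in controls. Of its 11 named genes, 4 lay below the 40th percentile in every array, and Gata2 is also on the LKS+ list. The part of these cell types in the change of Slc18a2 was not tested.

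Of 17 carriers of sugars and polyols, 6 were higher and 3 lower at day 14 (median 0.10). Slc2a3 (GLUT3), a high-affinity glucose transporter, read 2548, 2375 and 2602 at day 14, 1615, 1828 and 1903 at day 7, and 1835, 1740 and 2043 in controls. It was higher by 0.42 over control (SE 0.08, limma adjusted p = 0.0021), and the 2 other probe sets gave 0.52 and 0.39. Slc2a4 (GLUT4), the insulin-regulated form of muscle and fat, was dim, at 44.7, 47.2 and 43.5 at day 14 against 34.5, 29.6 and 33.7 in controls, and was higher by 0.47 (SE 0.08, limma adjusted p = 0.00083). Slc2a6 (log2 change 0.61, limma adjusted p = 0.011), Slc45a1 (0.39, limma adjusted p = 0.00093) and Slc2a8 (0.23, limma adjusted p = 0.046, lost in 12 of 20 alternatives, where the limma adjusted p was 0.0509 to 0.146) were higher as well. Of the losses of Slc2a8, 8 came from leaving out 1 array, which was any control, any day 7 array or day 14 replicate 2 or 3.

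Slc5a3, the sodium-coupled transporter of the osmolyte myo-inositol, was the sugar and polyol carrier with the largest drop. Its intensity was 91.9, 93.6 and 93.6 at day 14, 153, 163 and 140.3 at day 7, and 159, 180.1 and 176 in controls. All day 14 arrays lay below the other groups, which overlapped each other. The log2 change over control was -0.88 (SE 0.07, 1.84-fold lower, limma adjusted p = 1.5e-05), and the second probe set gave -0.41. Slc2a10 (-0.50, limma adjusted p = 0.00039) and Slc50a1 (-0.18, limma adjusted p = 0.035) were the other lower members; the call of Slc50a1 was lost in 10 of 20 alternatives (limma adjusted p 0.0523 to 0.50), among them without any 1 control or day 14 array or day 7 replicate 2.

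Of 28 carriers of metals and heme, 3 were higher and 7 lower at day 14 than in controls (median 0.00). The balance turned with the scaling, to 7 higher and 5 lower both after quantile normalization and with equal 75th percentiles. Leaving out 1 array gave 2 to 6 higher, with 6 only without day 14 replicate 2, and 6 to 8 lower. Within it, 1 of 12 Slc39 genes, which encode ZIP carriers that bring zinc and other metals into the cytosol, was higher and 5 were lower (0 to 3 and 4 to 6 with 1 array left out). Of 7 Slc30 genes, whose ZnT products move zinc out of the cytosol, 1 was higher and 2 were lower.

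Slc39a10 (ZIP10) read 395, 387 and 393 at day 14, 691, 675 and 657 at day 7, and 677, 841 and 689 in controls. Every day 14 array lay below every other array. The log2 change over control was -0.90 (SE 0.08, 1.87-fold lower, limma adjusted p = 2.6e-05), and a second probe set gave -0.87. Slc39a14 (ZIP14), which also carries iron and manganese, read 40.8, 51.998 and 64.5 at day 14, 76.6, 78.6 and 81.5 at day 7, and 82.4, 99.02 and 95.6 in controls, a change of -0.84 (SE 0.14, limma adjusted p = 0.00079). Its 2 other probe sets gave -0.44 and 0.04. Slc39a4 (ZIP4), the zinc uptake carrier of the intestine, was the higher ZIP gene, at 48.03, 50.7 and 59.2 at day 14 against 44.2, 33.8 and 43.7 in controls (log2 change 0.38, SE 0.12, limma adjusted p = 0.023), a call lost without control replicate 2 (limma adjusted p = 0.078) or day 14 replicate 3 (limma adjusted p = 0.0845).

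Among the zinc exporters, Slc30a6 (ZnT6, of the secretory pathway) read 109, 116 and 124 at day 14, 173, 183 and 182 at day 7, and 172, 188 and 200.004 in controls, a log2 change of -0.68 (SE 0.07, limma adjusted p = 7.2e-05). Slc30a1 (ZnT1), the plasma membrane exporter that MTF1 is known to induce, gave a change of -0.47 (SE 0.08, limma adjusted p = 0.0011), with 85.1, 86.3 and 93.1 at day 14 against 109, 130.3 and 128 in controls. A second, dimmer probe set of Slc30a1 gave 0.33 and was also called, so the direction of this gene depends on the probe set. Slc30a3 was higher by 0.33 (SE 0.07, limma adjusted p = 0.0027). The metallothionein gene Mt1, another MTF1 target, read 81.9, 93.7 and 93.4 at day 14 against 93.1, 50.6 and 44.5 in controls (log2 change 0.59, SE 0.22, limma adjusted p = 0.048). The groups overlapped. The metallothionein gene Mt2 was not called, at 26.4, 26.4 and 26.4 at day 14 against 47.4, 22.1 and 21.5 in controls (log2 change -0.10, limma adjusted p = 0.745).

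Most of the iron carriers named here were not called. Slc11a2 (DMT1), the ferrous iron importer, read 55.1, 58.5 and 57.8 at day 14 against 64.3, 52.3 and 55.1 in controls, and the mitochondrial iron importer Slc25a37 (mitoferrin 1) read 421, 372 and 377 against 398, 389 and 451; neither was called. Slc11a1 (NRAMP1), the metal carrier of phagosomes, was dim, at 16.5, 15.1 and 16.2 at day 14 against 10.7, 18.5 and 11.3 in controls, and was not called. Slc40a1 (ferroportin), the iron exporter, read 20.9, 23.5 and 25.1 at day 14, 44.9, 48.6 and 56.3 at day 7, and 39.3, 90.7 and 21.7 in controls. The controls overlapped both other groups, and the change of day 14 from control was not called (-0.88, SE 0.39, limma adjusted p = 0.078). Day 14 was lower than day 7 by 1.10 on the log2 scale (SE 0.39, limma adjusted p = 0.035), a call lost in 10 of 20 alternatives, among them without any 1 day 14 or day 7 array (limma adjusted p 0.0517 to 0.125). Slc48a1, the heme carrier HRG1, was higher at day 14 by 0.23 over control (SE 0.07, limma adjusted p = 0.015). That call was lost without day 14 replicate 1 (limma adjusted p = 0.052) and with the mean of probe sets (0.12, limma adjusted p = 0.107). Tfrc, the transferrin receptor, was higher by 0.31 (limma adjusted p = 0.0014). Ireb2, the iron regulatory protein 2 gene, was lower by 0.44 (limma adjusted p = 0.0012). Of the same partner list, Tfr2, Fth1, Steap3 and Aco1 were not called (limma adjusted p = 0.0835, 0.863, 0.526 and 0.425). Of 11 erythroid markers tested, 1 was higher and 0 were lower at day 14. Of the list's 18 named genes, 7 lay below the 40th percentile in every array. The marker Car1 read 672, 87.0 and 73.9 in controls, so control replicate 1 stood apart from the other controls. Of 16 monocyte and macrophage markers tested, 6 were higher and 1 lower at day 14 than in controls, and 3 were higher and 3 lower than at day 7; the summed intensity of the 17 with a probe set was 5795 to 7189 at day 14, 5220 to 6238 at day 7 and 5008 to 5669 in controls. The macrophage complement gene C1qa read 14.4, 10.5 and 17.5 at day 14, 21.7, 24.6 and 35.6 at day 7, and 14.2, 70.2 and 13.5 in controls, and C1qb read 59.5 in control replicate 2 against 10.1 and 11.3 in the other controls. Control replicate 2 was the highest control for Slc40a1 and for both complement genes. At day 7 the complement genes lay above day 14 in every array, as Slc40a1 did. They were picked from the monocyte and macrophage list after the values were seen, and its summed intensity was not lower at day 14. The part of macrophages in the Slc40a1 values was not tested.

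The 39 mitochondrial carriers of the Slc25 family gave 5 higher and 16 lower calls at day 14 against control (median -0.12), and all 16 lower genes were among the 33 with a mean intensity of 50 or more. With quantile normalization the counts were 7 and 15, and with equal 75th percentiles 9 and 9. Slc25a13 (citrin), the aspartate/glutamate carrier of the malate-aspartate shuttle, was the carrier with the largest change of the family. It read 73.7, 85.3 and 89.5 at day 14, 172, 156 and 162 at day 7, and 148, 186 and 182 in controls. Day 14 did not overlap the other groups, which overlapped each other. The log2 change over control was -1.05 (SE 0.10, 2.07-fold lower, limma adjusted p = 3.5e-05). A promoter window of the gene (GRCm38.p6, chr6:6217124-6217423, minus strand) is shown for that change, with 1 MYC word and 1 MTF1 word in capitals.
Slc25a13: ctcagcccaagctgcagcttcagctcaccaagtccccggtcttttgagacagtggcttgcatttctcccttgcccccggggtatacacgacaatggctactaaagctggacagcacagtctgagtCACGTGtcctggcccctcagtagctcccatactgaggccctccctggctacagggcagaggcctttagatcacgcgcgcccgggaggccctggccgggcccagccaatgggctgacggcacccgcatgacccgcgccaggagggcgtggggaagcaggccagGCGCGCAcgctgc

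The ADP/ATP translocases are the abundant carriers that exchange cytosolic ADP for ATP made in the matrix. Slc25a4 (ANT1) read 958, 892 and 955 at day 14, 1158, 1176 and 1202 at day 7, and 1146, 1149 and 1118 in controls, lower at day 14 than in controls by 0.28 on the log2 scale (SE 0.06, limma adjusted p = 0.0022). Slc25a5 (ANT2) read 4137, 4415 and 4359 at day 14, 5249, 5319 and 5089 at day 7, and 4782, 5367 and 4463 in controls. It was not called against control (-0.17, limma adjusted p = 0.070) and was lower than at day 7 by 0.28 (SE 0.07, limma adjusted p = 0.0097). Slc25a1, the citrate carrier that feeds cytosolic lipid synthesis, was lower by 0.27 than in controls (SE 0.06, limma adjusted p = 0.0057). With equal 75th percentiles the calls of Slc25a1 and of Slc25a5 between the stages were lost (limma adjusted p = 0.0775 and 0.105). With the mean of probe sets, that of Slc25a5 was lost too (-0.12, limma adjusted p = 0.288). Vdac1, the outer membrane channel through which these metabolites pass, was lower as well, by 0.34 (limma adjusted p = 0.00094).

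Further mitochondrial genes that were lower at day 14 than in controls were Slc25a14 (-0.53, limma adjusted p = 0.00032), Slc25a40 (-0.52, limma adjusted p = 0.00026), known for glutathione import, and Slc25a32 (-0.49, limma adjusted p = 0.0029), known for folate. Slc25a39, the other glutathione carrier, gave -0.24 (limma adjusted p = 0.011), with 5 probe sets on the array that ranged from -0.33 to 0.38, and lost its call with equal 75th percentiles (limma adjusted p = 0.174). Slc25a36, a pyrimidine nucleotide carrier, was higher. It read 1917, 1786 and 1605 at day 14, 1211, 1231 and 1186 at day 7, and 1371, 1361 and 1371 in controls, a change of 0.37 (SE 0.07, limma adjusted p = 0.0016), and its 2 other probe sets gave 0.44 and -0.14. Slc25a38, the glycine carrier of heme synthesis, was not called, at 109, 97.8 and 104 at day 14 against 103, 99.03 and 109.9 in controls.

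Of 19 carriers of monocarboxylates, fatty acids and other organic acids, 2 were higher and 7 lower at day 14 than in controls. Their median of -0.22 was the lowest of the 9 substrate classes. The shares were 10.5% and 36.8%, against 18.3% and 34.1% of all genes tested. Of the 12 with a mean intensity of 50 or more, 4 were lower, where 41.2% of all genes of that level were. Among 9 Slc16 genes, which encode the monocarboxylate transporters and their relatives, 1 was higher and 4 were lower. Slc16a1 (MCT1), which carries lactate and pyruvate, was not called against control, at 360.2, 435 and 427 at day 14 against 478, 593 and 413 (-0.27, limma adjusted p = 0.11). Bsg (basigin), the partner that MCT1 needs at the surface, was lower by 0.31 (limma adjusted p = 0.021). Slc16a6 read 143, 134 and 154 at day 14, 201, 187 and 202 at day 7, and 194, 196 and 195 in controls (-0.45, SE 0.07, limma adjusted p = 0.00041).

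Slc27a2 (FATP2), a very long-chain fatty acid transporter and acyl-CoA synthetase, read 16.7, 16.03 and 28.01 at day 14, 35.7, 49.8 and 48.3 at day 7, and 39.3, 36.2 and 42.8 in controls. Day 14 was lower by 1.01 on the log2 scale than in controls (SE 0.20, 2.01-fold lower, limma adjusted p = 0.0021). Slc16a4 lay below the 40th percentile in every day 14 array, at 14.4, 14.8 and 11.4 against 19.2, 25.8 and 29.9 in controls. It was called lower (limma adjusted p = 0.0022). With each day 14 value below its array's percentile replaced by the percentile, the group means of log2 values differed 1.64-fold. The call was lost with the mean of probe sets (log2 change -0.27, limma adjusted p = 0.0502). Slc13a5, a citrate importer, was higher at a dim level, with 36.4, 34.01 and 36.6 at day 14 against 26.1, 25.4 and 22.98 in controls (0.53, SE 0.08, limma adjusted p = 0.00043). Slc16a3 (MCT4) was not tested, because it lay above the 40th percentile in 0 arrays.

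The Slc29 family of equilibrative nucleoside transporters had 4 genes at day 14. The 1 higher gene was Slc29a4, given below as a monoamine transporter, and 2 were lower. Slc29a1 (ENT1), which carries adenosine and nucleoside drugs, read 78.04, 88.4 and 64.99 at day 14, 154, 141 and 138 at day 7, and 131, 139.9 and 116 in controls. The change was -0.75 (SE 0.11, 1.68-fold lower, limma adjusted p = 0.00039), and day 14 did not overlap the other groups. Slc29a2 (ENT2) was lower by 0.29 (limma adjusted p = 0.012; 0.090 with equal 75th percentiles). Slc29a4 (ENT4), a plasma membrane monoamine transporter, was higher by 0.57 (SE 0.08, limma adjusted p = 0.00039), with 96.8, 78.7 and 79.8 at day 14 against 57.4, 58.3 and 56.1 in controls. A window of Slc29a1 (GRCm38.p6, chr17:45595197-45595496, minus strand) is shown because its MYC word and its MTF1 word adjoin, in 1 run of capitals.
Slc29a1: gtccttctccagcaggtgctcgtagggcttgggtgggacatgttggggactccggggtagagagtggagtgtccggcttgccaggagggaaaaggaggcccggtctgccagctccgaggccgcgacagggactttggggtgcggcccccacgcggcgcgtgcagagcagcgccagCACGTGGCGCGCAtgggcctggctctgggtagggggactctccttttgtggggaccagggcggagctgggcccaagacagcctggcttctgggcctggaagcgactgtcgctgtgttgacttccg
Among the lower genes, 45 had a promoter window, and 10 of these (22.2%) held the MYC word and 16 (35.6%) the MTF1 word. Of 36 higher genes with a window, 5 (13.9%) and 7 (19.4%) held them. Of all 178 solute carrier genes with a window, 16.3% and 28.7% held them. The NRF2 word was in 12 lower genes (26.7%) and 6 higher ones (16.7%), and the ATF4 word in 1 lower and 1 higher gene. These shares are descriptions.

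**Figure D3:**
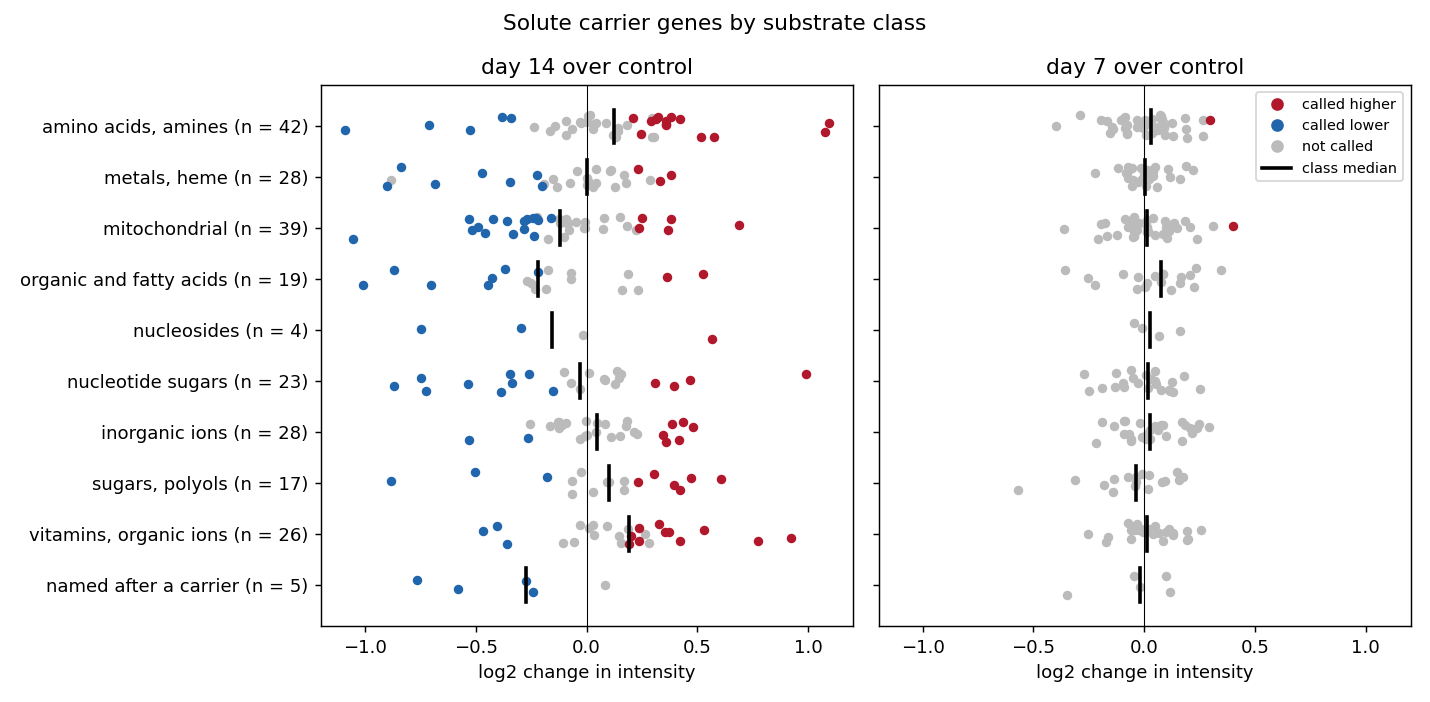
Log2 change in intensity of each solute carrier gene by substrate class, day 14 over control (left) and day 7 over control (right); each point is a gene, the black bar is the class median and colour gives the call. At day 7 the points of every class gather around 0 with 2 called genes, and at day 14 they spread from -1.09 to 1.09.

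The Slc35 family holds the nucleotide sugar carriers, which supply glycosylation in the Golgi and endoplasmic reticulum. All 23 of its genes were classed as such by family, whether or not that substrate is known for each. They gave 4 higher calls (Slc35d3, Slc35e1, Slc35e2 and Slc35e4) and 9 lower calls at day 14 (median -0.03). This balance also turned with scaling, to 7 higher and 5 lower after quantile normalization and 9 and 5 with equal 75th percentiles. Slc35b4, which carries UDP-xylose and UDP-N-acetylglucosamine, read 89.7, 93.6 and 97.4 at day 14, 139.8, 145 and 139.8 at day 7, and 152, 187 and 175 in controls. All 3 of its probe sets were lower at day 14 than in controls, with log2 changes of -0.87, -1.11 and -0.61 (for the brightest, SE 0.08, limma adjusted p = 2.6e-05).

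Slc35a1, the CMP-sialic acid carrier, read 194, 206 and 215 at day 14, 304, 338 and 305 at day 7, and 326, 356 and 351 in controls, a change of -0.75 (SE 0.07, 1.68-fold lower, limma adjusted p = 3.0e-05), with -0.93 from its second probe set. Slc35g1 was lower by 0.73 (SE 0.19, limma adjusted p = 0.0095), although its controls ranged widely, from 62.4 to 117. Slc35d3, known in mice for the biogenesis of platelet dense granules, had the largest rise in the family. Its 492, 515 and 376 at day 14 stood above 190.1, 219.7 and 221 at day 7 and 238, 201 and 254 in controls, a change of 0.99 over control (SE 0.13, 1.98-fold, limma adjusted p = 0.00018) and 1.12 over day 7 (limma adjusted p = 7.3e-05). The megakaryocyte and platelet markers given above for Slc18a2 were higher in the same arrays, and their part in this change was not tested.

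The class of vitamin, choline and organic ion carriers gave 11 higher and 3 lower calls among 26 genes (median 0.19), and 16 of the 26 had a mean intensity under 50. Of 11 Slc22 genes, which encode organic cation, anion and carnitine transporters, 8 were higher and 0 lower, and 8 of the 11 were dim. Leaving out 1 array gave 7 to 11 higher calls in the class and 5 to 8 in Slc22, with 7 and 5 without day 14 replicate 1 or 3. Slc22a4 (OCTN1), the ergothioneine transporter, read 22.6, 25.4 and 19.4 at day 14, 15.7, 12.2 and 12.7 at day 7, and 11.02, 10.1 and 14.6 in controls. The change was 0.92 (SE 0.15, limma adjusted p = 0.00068), with 2 of 3 control arrays and 2 of 3 day 7 arrays below the 40th percentile. With those values raised to the percentile, the change over control was 0.63 on the log2 scale, so its size rests on levels that were not well measured. The brighter Slc22a5 (OCTN2), the carnitine transporter, read 369, 346 and 351 at day 14, 303, 324 and 292 at day 7, and 298, 312 and 324 in controls.

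Slc14a1, the urea transporter UT-B, read 453, 404 and 443 at day 14, 248, 229 and 262 at day 7, and 299.7, 223 and 243 in controls. It was higher by 0.77 (SE 0.11, 1.71-fold, limma adjusted p = 0.00025), whereas its second probe set gave 0.15 and was not called. Slc19a1, the reduced folate carrier, was lower. It read 227, 276 and 279 at day 14, 375, 360.3 and 322 at day 7, and 342, 397 and 342 in controls, a change of -0.47 (SE 0.10, limma adjusted p = 0.0032). Slc5a6, the sodium-dependent multivitamin transporter, was lower by 0.36 (limma adjusted p = 0.0033).

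Among 28 carriers of sodium, protons, chloride, bicarbonate, calcium and phosphate, 6 were higher and 2 lower at day 14 (median 0.05). Leaving out 1 array gave 4 to 7 higher and 1 to 4 lower, with 4 of each without day 14 replicate 1. Slc26a11, a sulfate and anion transporter of lysosomes, was higher by 0.48 (SE 0.13, limma adjusted p = 0.012), at 209.9, 167 and 174 at day 14 against 122, 114 and 163 in controls. Slc20a2 (PIT2), a phosphate importer, was lower by 0.53 (SE 0.09, limma adjusted p = 0.00093), but a dimmer probe set of the gene gave 0.21 and was called in the other direction. Its relative Slc20a1 (PIT1) was not called, at 439, 463 and 481 at day 14 against 439, 444 and 502 in controls. Slc12a2 (NKCC1), the sodium-potassium-chloride cotransporter, was not called, at 386, 339 and 339.6 against 384, 427 and 351. Slc4a1, the anion exchanger of red cells, was not tested, since it lay above the 40th percentile in 0 arrays.

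The symbol rule also caught 5 genes that are not carriers but are named after one. Of these, 0 were higher and 4 lower at day 14 than in controls. Slc4a1ap, which encodes kanadaptin, read 68.00, 65.8 and 66.7 at day 14, 100.1, 105 and 117 at day 7, and 97.3, 103 and 99.8 in controls (-0.58, SE 0.07, limma adjusted p = 0.00010). Slc9a3r1, the NHERF1 scaffold, was lower by 0.27 (SE 0.07, limma adjusted p = 0.0063; 0.081 with equal 75th percentiles).

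**Figure D4:**
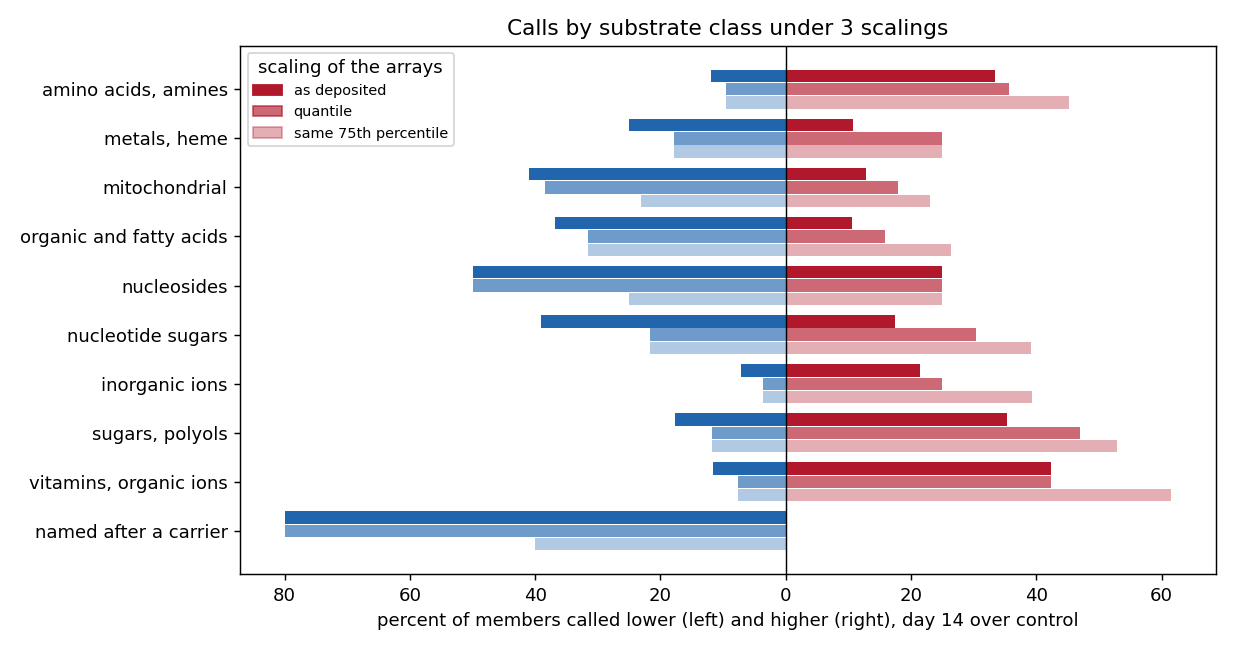
Percent of each substrate class called lower (left of 0) and higher (right of 0) at day 14 over control, with the arrays as deposited, quantile normalized and set to the same 75th percentile (dark to pale bars). As deposited, 5 of the 9 substrate classes had more lower than higher calls, against 3 after quantile normalization and 1 with equal 75th percentiles.

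The brightest probe set stood for each gene, and 131 of the 231 genes had more than 1. Of 72 other probe sets of genes called at day 14 against control, 56 changed in the same direction and 16 in the opposite one, 6 of them with a call: those of Slc20a2, Slc25a3, Slc25a39, Slc25a53, Slc30a1 and Slc9a5.

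Day 14 compared directly with day 7 gave 44 higher and 64 lower solute carriers and 123 not called, where 17.4% and 33.6% of all genes tested were higher and lower. The share among solute carriers was 19.05% and 27.7%, and the median log2 change 0.02, against -0.06 for all genes. The comparisons share the day 14 arrays, so their calls are not independent: 36 genes were higher in both, 50 lower in both and 0 opposite, while 16 and 8 were higher and lower against control alone, and 8 and 14 against day 7 alone. With equal 75th percentiles, 88 were higher and 42 lower than at day 7, and after quantile normalization 58 and 54.

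In the organic and fatty acid class, 2 of 19 genes were higher and 11 lower at day 14 than at day 7 (median -0.43). These were 10.5% and 57.9%, against 17.4% and 33.6% of all genes tested. Within the class, 7 of 9 Slc16 genes were lower. Slc16a7 (MCT2), a high-affinity pyruvate and lactate carrier, read 62.5, 73.9 and 71.6 at day 14, 118, 96.6 and 96.9 at day 7, and 84.8, 85.2 and 74.1 in controls. Day 14 lay below control and day 7 above it, neither of them called (-0.23, limma adjusted p = 0.075, and 0.35, limma adjusted p = 0.089), while day 14 was lower than day 7 by 0.58 (SE 0.10, limma adjusted p = 0.00085). Slc16a10 (TAT1), the aromatic amino acid carrier, read 89.6, 93.98 and 98.2 at day 14, 148, 131 and 141 at day 7, and 122, 116 and 127 in controls, lower at day 14 than at day 7 by 0.58 (SE 0.07, limma adjusted p = 9.6e-05). Slc16a1 was also lower than at day 7, by 0.43 (SE 0.13, limma adjusted p = 0.019), as was its partner Bsg, by 0.62 (limma adjusted p = 0.00044). The call of Slc16a1 was lost without day 7 replicate 1 (limma adjusted p = 0.074) or day 14 replicate 1 (limma adjusted p = 0.073).

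The Slc25 family gave 3 higher and 17 lower calls at day 14 over day 7, and amino acid carriers 12 higher and 6 lower. These were 7.69% and 43.6% of Slc25 genes, and 28.6% and 14.3% of amino acid carriers. Of all genes tested, 17.4% were higher and 33.6% lower. Of all genes with a mean intensity of 50 or more, 16.1% and 40.5% were. With 1 array left out, Slc25 gave 1 to 4 higher, with 1 without day 7 replicate 2, and 13 to 18 lower. Slc44a2, known as a choline transporter, was called only in this comparison: it read 1665, 1615 and 1549 at day 14, 1277, 1213 and 1176 at day 7, and 1422, 1372 and 1577 in controls. Day 14 was higher than day 7 by 0.40 (SE 0.07, limma adjusted p = 0.00094), whereas neither stage was called against control (0.15, limma adjusted p = 0.10, and -0.25, limma adjusted p = 0.082). The call between the stages was lost with the mean of probe sets (0.19, limma adjusted p = 0.07). Near the limit of the 40th percentile filter, Slc22a4 and Slc1a7 passed with 5 of 9 arrays above it and values of 10.1 to 25.4, and Slc2a5 and Slc22a2 missed it with 2 arrays above it and values of 10.6 to 16.7.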

How the data were processed

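The authors' deposited table gives normalized intensity values (linear) for 45037 probe sets in 9 arrays. Per the series' design text, signals were normalized with Affymetrix's MAS 5.0 software, yet 51.6% of probe sets repeat an identical value across arrays. Other steps are not given in the sources used here, and the number of arrays limits the precision.

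Probe sets with 1 gene symbol in the platform annotation (34945) named a gene, and its brightest probe set, by mean log2 intensity, was used. All 231 solute carriers matched RefSeq by gene identifier. Values below the 20th percentile (5.81) were raised to it, log2 was taken, and genes above the array's 40th percentile (14.1 to 15.2) in at least 3 arrays were fitted with limma 3.58.1 in R 4.3.3 over all 9 arrays, without covariates. The fit was tested on simulated data.

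Substrate classes follow the SLC family, with exceptions by gene. Some members still carry another substrate than their class, among them Slc29a4, Slc43a3 and Slc16a10. Members, classes and lists were chosen with earlier results of these data known, and the 5 genes named after a carrier were set apart after their names were seen. Genes named were up to 4 called genes per class, direction and comparison with the largest change and groups that did not overlap, all members called at day 7, and a preset list of 30. Printed promoters, Slc22a5, and the genes that an exception or a stage contrast singles out were chosen after values were seen. Slc22a3 is not analysed here, and 1 other gene of that list is not reported here.

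Replicate numbers were checked for pairing: deviations of same-numbered arrays from their group means correlated at -0.19 to 0.12. Those of differently numbered arrays correlated at -0.15 to 0.20, a range that overlaps the first. With so few arrays per group, this check cannot decide whether the numbers pair the arrays.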

Additional observations from a re-analysis of the deposited data

Results flagged for a closer look

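For 15 solute carrier genes, every day 14 array lay on one side of all controls and every day 7 array on the other side, and day 14 differed from day 7 in limma's test. The share of all genes tested that met this rule was not counted, so the number cannot be read as particular to solute carriers. The day 7 changes themselves were not called, and day 14 and day 7 are set against the same controls. Day 14 was above day 7 for 3 of them, by log2 changes of 1.47 for Slc18a2, 0.55 for Slc25a36 and 0.30 for Slc66a2. Day 14 was below day 7 for the other 12. The monocarboxylate family gave -0.58 for Slc16a7, -0.58 for Slc16a10 and -0.47 for Slc16a11. The mitochondrial family gave -0.33 for Slc25a4, -0.35 for Slc25a17, a peroxisomal relative, and -0.35 for Slc25a39. The rest were Slc43a3 at -0.90, Slc10a7 at -0.45, Slc39a11 at -0.36, Slc7a6os at -0.36, Slc27a4 at -0.26 and Slc35b2 at -0.20. The limma adjusted p of day 14 over day 7 ran from 2.1e-05 for Slc18a2 to 0.014 for Slc35b2.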

How the results depend on the processing

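Of the named genes called as deposited, 52 of 74 kept their call and direction at day 14 over control, 53 of 76 at day 14 over day 7 and 0 of 2 at day 7 over control in every alternative run for the gene (19 or 20). Leaving out 1 array gave 41 to 56 higher and 47 to 56 lower at day 14 over control, 32 to 46 and 52 to 69 at day 14 over day 7, and 0 to 2 and 0 to 1 at day 7; the median at day 14 over control ran from -0.0061 to 0.021. With equal 75th percentiles, the counts were 86 and 37 at day 14 over control, 88 and 42 at day 14 over day 7, and 2 and 1 at day 7, the medians 0.124 and 0.15, and 1 class had more lower than higher calls; with quantile normalization, the medians were 0.070 and 0.081, and 3 classes had more lower calls. A filter at the 60th percentile left 30 higher at day 14 over control, with medians of -0.073, -0.039 over day 7 and -0.0092 at day 7. The day 7 count of higher genes (2) was 1 with no filter, 1 with the mean of probe sets, 1 with only the 2 groups fitted, 18 with array weights and 0 with the replicate block, which gave 55 higher and 53 lower at day 14 over control and 43 and 59 over day 7. The day 7 count of lower genes (0) was 1 with an offset of 32, 1 with a trended robust prior and 8 with array weights. The mean of probe sets reversed Slc25a3 (0.063), Slc25a53 (0.32) and Slc9a5 (-0.20) at day 14 over control; without day 14 replicate 1, another probe set stood for Slc9a5 and gave -0.58 (up to 0.43 without other arrays). Causes other than these changes of probe set were not tested. Signals near the floor limit what dim genes can show.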
